A study of Mus musculus with 24 samples.

Results

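Members of the TNF ligand and receptor superfamily were read from arrays of 4 tissues (kidney, liver, lung and white adipose tissue, WAT) of male C57BL/6J mice at 10 weeks (10W) and 90 weeks (90W). A probe was counted as a member when the transcript accession on the array mapped to a mouse RefSeq symbol beginning with Tnfsf or Tnfrsf, or to Tnf, Lta, Ltb, Ltbr, Fas, Fasl, Cd40, Cd40lg, Cd27 or Cd70. Of 43 such genes in the RefSeq table, 41 had a probe, out of 22911 genes named on the array. Tnfsf13 and Tnfsf13os had no matched probe. The 41 members were covered by 56 probes, and 14 of them had more than 1 probe. Of the 41 members, 37 passed the filter on dim probes in at least 1 tissue and 32 passed in every tissue. Cd40lg, Cd70, Tnfsf4 and Tnfsf18 passed in no tissue.

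The study hybridised whole-tissue RNA of 3 mice of each age and tissue to 24 one-colour arrays, and asked here what differs in each tissue between the ages. No agent, transgene or deletion is given for these mice, and young and aged animals differ in the labels by age only. All mice were male, so nothing here extends to females. Each value below is a log2 signal relative to the 75th percentile of its array, so that 0 is the level of that percentile and 1 unit is a doubling, and each change is the mean at 90W minus the mean at 10W. A member was called when its adjusted p was under 0.05 in limma with Benjamini-Hochberg adjustment over all genes and unnamed targets tested in the tissue. The precision is limited by 3 mice per age. An exact permutation test of 3 against 3 cannot go below p = 0.1.

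Ligands of this family are mostly trimeric membrane proteins that can be shed, and their receptors signal through TRAF adaptors to NF-kappaB or, where they carry a death domain, through FADD and caspases to cell death. TNF and lymphotoxin drive inflammation and the building of lymphoid tissue, BAFF (Tnfsf13b) keeps B cells alive, and the receptors OX40 (Tnfrsf4), GITR (Tnfrsf18) and 4-1BB (Tnfrsf9) are costimulators of T cells. Most members are made by leukocytes, while a few receptors, such as Tnfrsf1a, Tnfrsf12a and Tnfrsf21, are found on many other cells.

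The promoter windows of the 4 members on which the results turn most are shown first, because Ltb and Tnf lie beside each other on chromosome 17 and Tnfrsf4 and Tnfrsf18 lie on the same stretch of chromosome 4. Windows are from RefSeq on GRCm38.p6, 250 bases before to 50 bases after the start of the gene, 5′ to 3′ on the strand of the gene. Capitals mark a match to the kappaB consensus, the NF-kappaB recognition motif, searched on both strands. The windows are Ltb at chr17:35194257-35194556 on the plus strand, Tnf at chr17:35201958-35202257 on the minus strand, Tnfrsf4 at chr4:156013445-156013744 and Tnfrsf18 at chr4:156026072-156026371, both on the plus strand.
Ltb: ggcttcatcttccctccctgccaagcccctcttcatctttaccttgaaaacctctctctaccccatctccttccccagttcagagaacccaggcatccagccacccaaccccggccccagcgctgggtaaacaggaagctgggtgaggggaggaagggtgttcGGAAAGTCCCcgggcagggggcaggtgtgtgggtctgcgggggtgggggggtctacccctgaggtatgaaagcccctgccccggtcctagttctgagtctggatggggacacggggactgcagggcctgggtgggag
Tnf: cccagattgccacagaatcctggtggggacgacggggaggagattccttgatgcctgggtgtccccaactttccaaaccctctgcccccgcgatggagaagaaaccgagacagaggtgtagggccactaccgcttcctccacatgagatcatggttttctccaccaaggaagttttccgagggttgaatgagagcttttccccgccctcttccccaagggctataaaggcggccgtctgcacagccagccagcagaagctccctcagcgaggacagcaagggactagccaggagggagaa
Tnfrsf4: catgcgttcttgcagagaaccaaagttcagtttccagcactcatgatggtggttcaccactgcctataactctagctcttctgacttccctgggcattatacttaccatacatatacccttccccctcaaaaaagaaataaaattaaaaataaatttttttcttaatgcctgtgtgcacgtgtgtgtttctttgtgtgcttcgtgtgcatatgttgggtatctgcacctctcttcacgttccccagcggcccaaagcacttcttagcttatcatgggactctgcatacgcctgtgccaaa
Tnfrsf18: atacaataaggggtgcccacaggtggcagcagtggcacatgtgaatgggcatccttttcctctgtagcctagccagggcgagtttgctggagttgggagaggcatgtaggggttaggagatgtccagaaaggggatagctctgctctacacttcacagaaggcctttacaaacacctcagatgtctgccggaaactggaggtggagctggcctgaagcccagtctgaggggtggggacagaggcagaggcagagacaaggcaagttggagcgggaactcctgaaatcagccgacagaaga
Ltb held 1 match, on the strand opposite to the gene and starting 87 bases before the start site. The windows of Tnf, Tnfrsf4 and Tnfrsf18 held none in these 300 bases. Of the 31 members with a window, 4 held a match in at least 1 window (12.9%), against 9.6% of the 27025 genes in the table. The 4 were Ltb, Tnfrsf25, Tnfrsf8 and Tnfrsf9.

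The arrays carried the markers of their tissues. The summed signal of 5 hepatocyte markers was 2756 to 4829 times the 75th percentile in the livers, that of 5 adipocyte markers was 973 to 1345 in WAT, that of 5 lung epithelial markers was 1690 to 2538 in the lungs, and that of 6 kidney epithelial markers was 180 to 626 in the kidneys. Within a tissue and age the arrays correlated at r = 0.933 to 0.996 across genes, lowest among the young WAT. Some arrays stood apart. The lung of aged mouse 2 had a low B cell sum (3.22, against 23.0 and 29.4 in the other aged lungs) and a high neutrophil sum (1303, against 153 and 297). The lung of aged mouse 1 had a hepatocyte sum of 211, against 1.28 and 4.90 in the other aged lungs. The liver of aged mouse 2 had a neutrophil sum of 1348, against 25.8 and 17.1 in the other aged livers. In young WAT the macrophage sum of mouse 1 was 41.6, against 98.8 and 129 in the other young mice. Results that rest on these arrays are given with and without them.

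Most members that differed with age were higher at 90W, and the kidney held the most of them. In the kidney, 25 of 36 members tested were higher (69.4%) and 5 were lower (13.9%), where 20.6% of all 31505 genes and targets tested were higher and 42.6% lower. In the liver, 12 of 32 were higher (37.5%) and 2 lower (6.25%), against 10.5% and 17% of all tested. In WAT, 5 of 36 were higher (13.9%) and 0 lower, against 2.01% and 0.579%. Of 35 lung members, 3 were called higher (8.57%) and 0 lower, against 2.72% and 2.89%. At an unadjusted p under 0.05, limma had 11 members higher and 4 lower in lung and 20 higher and 0 lower in WAT. How many of all tested passed that cutoff in limma was not counted. At the same cutoff the methods' t-test had 11 members higher and 2 lower in lung and 17 higher and 0 lower in WAT. Of all tested, that t-test had 2309 higher and 5027 lower of 30327 in lung. In WAT it had 2646 higher and 2668 lower of 30063. The median change of the members tested was 1.08 in kidney, 0.58 in liver, 1.09 in WAT and 0.24 in lung, beside -0.23, -0.20, -0.05 and -0.08 over all tested. With members that had no young array well above background set at their bound, it was 1.05 in kidney, 1.02 in WAT and as before in liver and lung. Members that passed the filter through 1 age alone had to differ, so the counts were also read over members well above background on all 6 arrays of the tissue. There, 18 of 27 were higher in kidney (17.8% of all such genes), 6 of 22 in liver (9.03%), 3 of 31 in WAT (1.34%) and 3 of 34 in lung (2.95%).

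**Figure D1:**
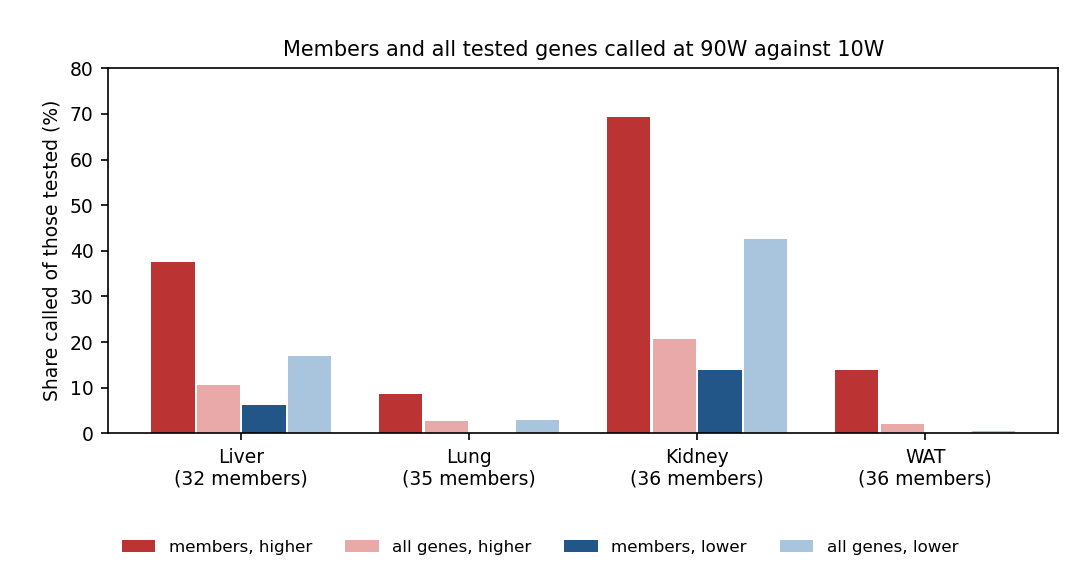
Share of the members tested and of all genes and targets tested that were called higher or lower at 90W against 10W, in percent, in each tissue. Members were called higher in 69.4% of cases in kidney and 37.5% in liver, where 20.6% and 10.5% of all tested were.

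The array was scaled to its 75th percentile, and the calls depend on that choice in part. Scaled to spike-in controls instead, the median change of all tested moved from -0.20 to -0.74 in liver, from -0.08 to -0.38 in lung, from -0.23 to -0.04 in kidney and from -0.05 to 0.19 in WAT. The difference between the median of the members and that of all tested was 0.79 in liver, 0.32 in lung, 1.31 in kidney and 1.15 in WAT, and a shift common to all genes of an array cannot alter it. Under the spike-in scaling the kidney had 20 members higher and 0 lower and the liver 7 higher and 2 lower. Of all calls in the kidney 32.6% were higher under the 75th percentile and 76.5% under the spike-ins, so that the members given below as lower in the kidney were lower relative to the 75th percentile and not called relative to the spike-ins. The same share went from 38.1% to 22.6% in liver, from 48.5% to 16.4% in lung and from 77.7% to 93.7% in WAT.

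Across tissues, 3 members were higher in 3 tissues (Ltb, Tnfrsf4 and Tnfrsf18), 12 in 2 tissues, 12 in 1 tissue and 0 in all 4. Of the 37 members tested in any tissue these were 8.11%, 32.4%, 32.4% and 0, where of 19068 named genes tested in any tissue 1.79% were higher in 3 tissues, 6.68% in 2, 17.5% in 1 and 0.362% in all 4. In the other direction, 5 members were lower in 1 tissue (13.5%, against 36.6% of named genes), and Tnfrsf19 was lower in 2 (2.7%, against 10.2%). Tnfrsf21 was the only member called in both directions (2.7%, against 3.2%). Of the members tested, 5 were called in no tissue. The counts by tissue are not independent of the unequal share of genes called in each tissue, given above.

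**Figure D2:**
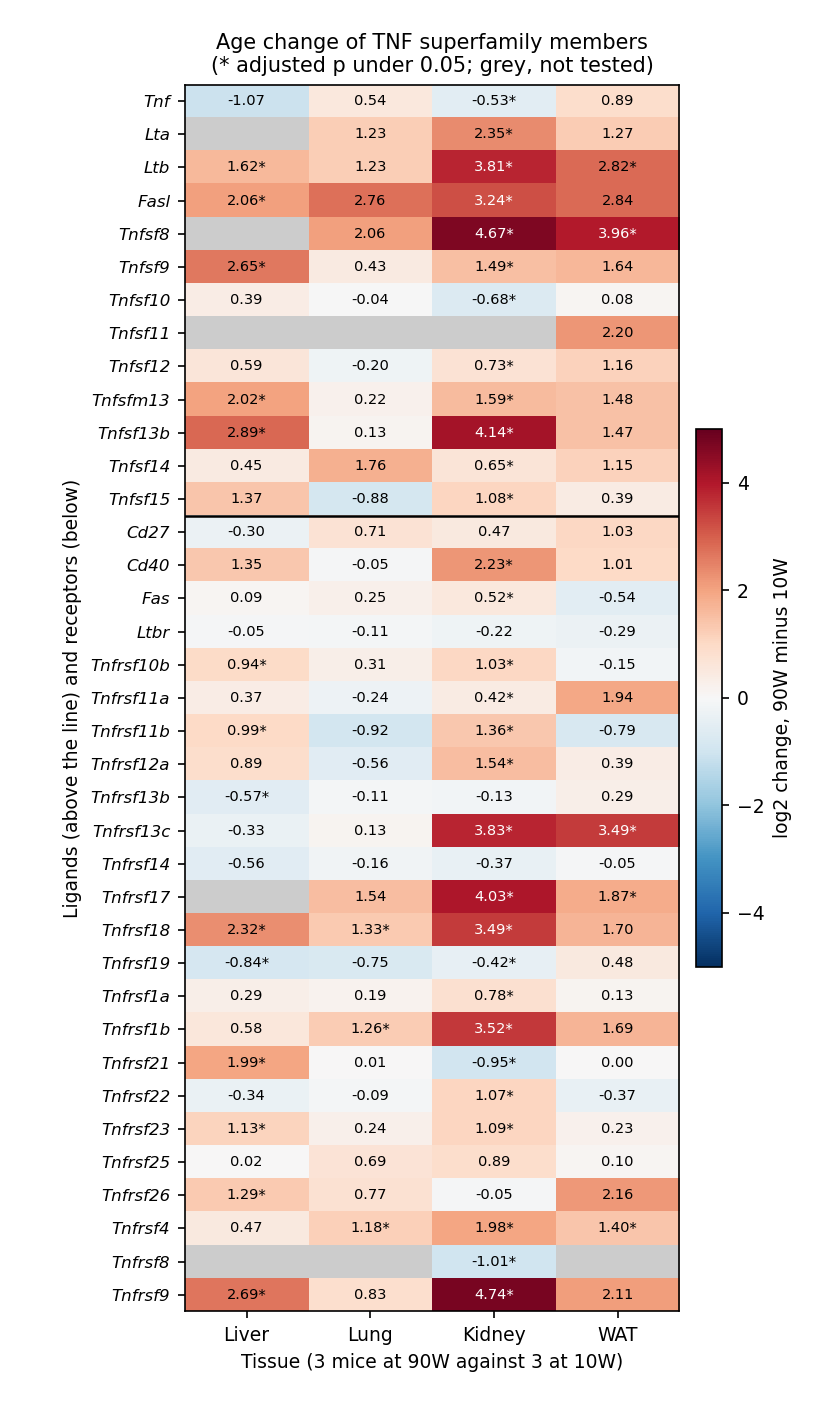
Change of each member tested (rows, ligands above the line and receptors below) at 90W against 10W in each tissue (columns), as log2 signal, 90W minus 10W, 3 mice per age. An asterisk marks an adjusted p under 0.05 and grey a member that did not pass the filter; the colours of members with no young array well above background, such as Tnfrsf9 in kidney, show fitted values that the text gives as bounds. Kidney Tnfsf13b, measured in all 6 kidneys, is at 4.14 and kidney Tnfrsf21 at -0.95.

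Ltb, lymphotoxin beta, anchors lymphotoxin to the cell surface and acts through the lymphotoxin beta receptor. In the kidney, the young mice read -1.67, -1.64 and -1.63 and the aged mice 2.52, 2.09 and 1.88. The ages did not overlap, and the change was 3.81 (SE 0.17, adjusted p = 4.19e-05 in limma). In WAT the young mice read -1.02, -0.25 and 0.04 and the aged mice 2.23, 2.52 and 2.49, a change of 2.82 (SE 0.30, adjusted p = 0.0118). In the liver the young mice read -0.52, -0.48 and -0.80 and the aged mice 1.73, 0.88 and 0.45, a change of 1.62 (SE 0.32, adjusted p = 0.0154). In the lung, where young Ltb was at 2.61, 2.38 and 2.01, the highest of the 4 young tissues (each tissue lies on a slide of its own, so tissue and slide cannot be told apart), the aged mice read 3.70, 3.09 and 3.90, also without overlap, at an adjusted p of 0.0517. The receptor Ltbr was called in no tissue. The liver call of Ltb was lost without young mouse 1 (adjusted p = 0.0501) or 2 (0.0523) and under the spike-in scaling (change 1.08, adjusted p = 0.109). In WAT it was lost without aged mouse 3 (adjusted p = 0.0562), and in the lung it was gained without aged mouse 2 (adjusted p = 0.0264).

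Tnfrsf18 and Tnfrsf4 encode GITR and OX40, costimulatory receptors carried by activated and regulatory T cells. Tnfrsf18 rose in kidney, from -3.92, -4.35 and -3.63 to -0.27, -0.43 and -0.73 (change 3.49, SE 0.21, adjusted p = 0.000103). It also rose in liver, from -4.18, -3.57 and -4.65 to -1.80, -1.53 and -2.12 (change 2.32, SE 0.30, adjusted p = 0.00441), where 2 of 3 young livers were well above background. In these 2 tissues the lowest aged mouse lay more than 1 unit above the highest young one. In the lung the rise was smaller, from -0.68, -0.69 and -0.84 to 0.32, 0.93 and 0.51 (change 1.33, SE 0.17, adjusted p = 0.0182). The lung call was lost without any 1 young mouse, at adjusted p-values of 0.0749 to 0.0904. In WAT the young mice read -2.62, -1.37 and -1.66 and the aged mice -0.70, -0.05 and 0.20, without overlap and at an adjusted p of 0.0945.

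Tnfrsf4 rose in lung, from -1.12, -0.93 and -0.96 to 0.30, 0.03 and 0.20 (change 1.18, SE 0.11, adjusted p = 0.0109). In kidney it went from -2.03, -2.15 and -2.29 to -0.11, -0.03 and -0.40 (change 1.98, SE 0.13, adjusted p = 0.000123). In WAT it went from -1.53, -1.63 and -1.40 to -0.35, 0.03 and -0.05 (change 1.40, SE 0.18, adjusted p = 0.0206). The aged mice lay above all young mice in these tissues. In the liver the ages overlapped, with young mice at -1.75, -1.62 and -1.35 and aged mice at -0.94, -1.36 and -1.002, and the change of 0.47 did not pass (adjusted p = 0.103) and turned to -0.07 under the spike-in scaling. The lung call of Tnfrsf4 was lost without young mouse 1 (adjusted p = 0.0666) or 2 (0.0609). In WAT it was lost without young mouse 2 (adjusted p = 0.0876) or 3 (0.0773) or aged mouse 2 (0.0659) or 3 (0.0722).

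**Figure D3:**
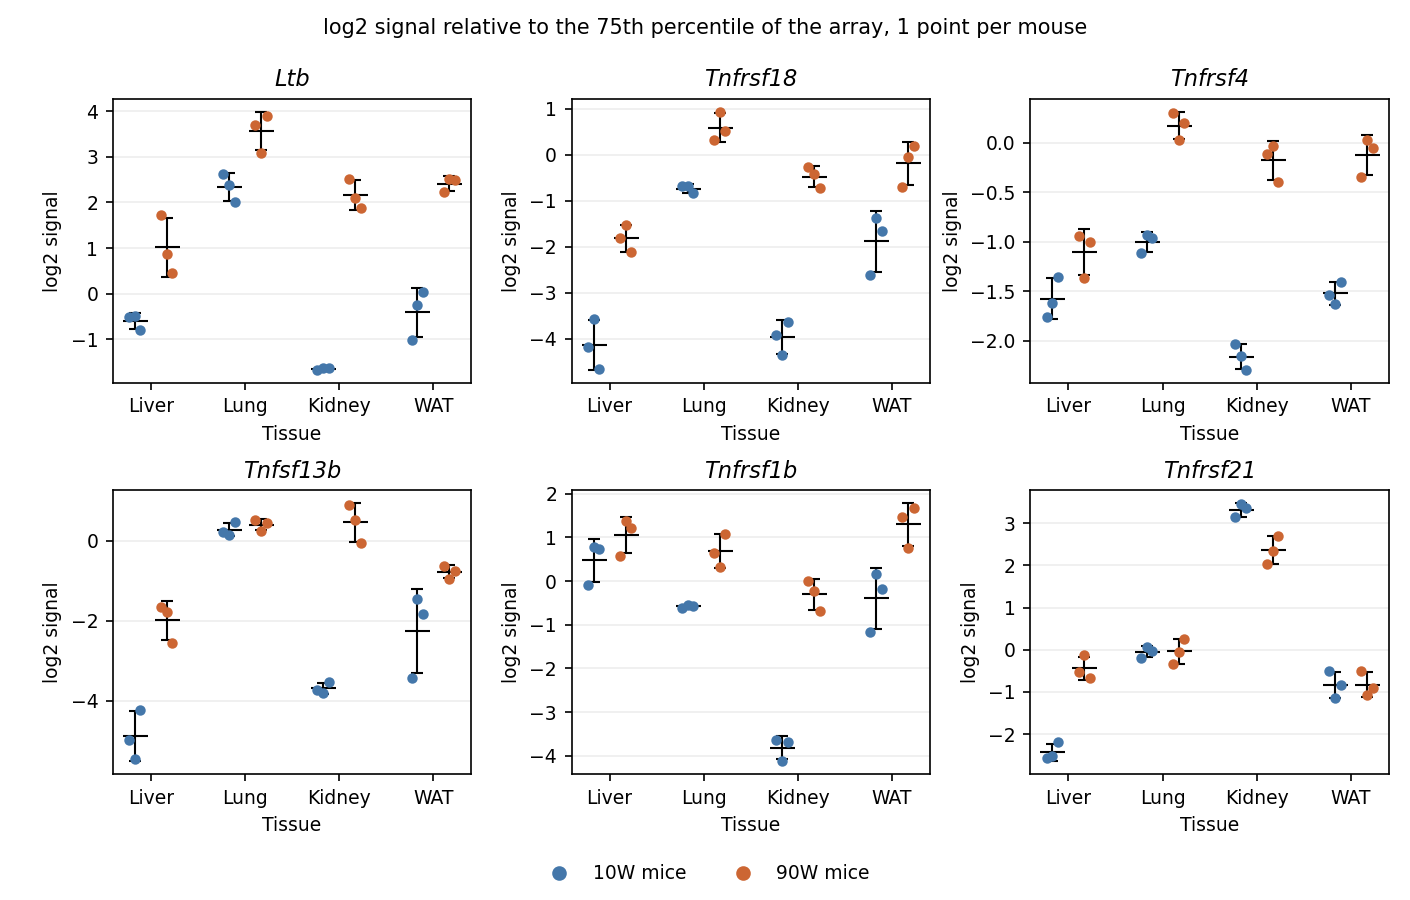
log2 signal relative to the 75th percentile of the array for 6 members in each tissue, 1 point per mouse, with the mean and SD of the 3 mice of each age. Aged kidneys lie above young kidneys for Ltb, Tnfrsf18, Tnfrsf4, Tnfsf13b and Tnfrsf1b and below them for Tnfrsf21.

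Tnf has 2 probes, both assigned to the same transcript, and they did not move together. The probe A_55_P2740937 read -0.84, -0.85 and -0.85 in the young kidneys and -1.31, -1.47 and -1.35 in the aged kidneys, a fall (change -0.53, SE 0.08, adjusted p = 0.00173). The probe A_51_P385099 read -5.07, -5.63 and -4.99 in the young kidneys and -1.86, -1.96 and -2.37 in the aged, a change of 3.17 (SE 0.21, adjusted p = 0.000134). Neither probe had overlapping ages there, so the 2 probes disagreed in direction beyond the spread of the mice.

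In the liver, A_55_P2740937 read 0.68, 1.69 and 1.54 at 10W and -0.22, 0.63 and 0.29 at 90W, a change of -1.07 at an adjusted p of 0.0512, which became 0.0378 without young mouse 1. A_51_P385099 read -4.84, -4.48 and -4.19 at 10W and -1.91, -3.70 and -2.86 at 90W, a change of 1.68 (SE 0.44, adjusted p = 0.0324). In WAT, A_55_P2740937 went from -2.30, -2.48 and -2.33 to -1.44, -1.84 and -1.15, with a change of 0.89 at an adjusted p of 0.102. A_51_P385099 went from -4.28, -4.83 and -3.73 to -1.37, -2.02 and -0.70, a change of 2.92 (SE 0.42, adjusted p = 0.0301). In WAT both probes thus lay higher in every aged mouse, although only A_51_P385099 passed.

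In the lung, A_55_P2740937 read -2.73, -2.48 and -2.54 at 10W and -2.07, -2.59 and -1.48 at 90W, with overlapping ages and an adjusted p of 0.27. A_51_P385099 read -3.73, -3.26 and -3.89 at 10W and -2.14, -3.51 and -1.01 at 90W, also overlapping, at an adjusted p of 0.204. In both probes aged mouse 2 was the one inside the young range. The adjusted p of A_51_P385099 is over single probes, of which 62.7% were called in either direction in kidney, 26.2% in liver, 5.49% in lung and 2.55% in WAT. With the mean of both probes in place of the brighter one, Tnf had a change of 1.32 in kidney (adjusted p = 0.000389) and 0.31 in liver (adjusted p = 0.373), so the direction of Tnf in these tissues rests on the probe. Which probe follows the Tnf transcript was not tested, as the array files hold no probe sequence. A_51_P385099 was well above background on 1 of 3 young livers and 2 of 3 young kidneys, and A_55_P2740937 on all arrays.

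**Figure D4:**
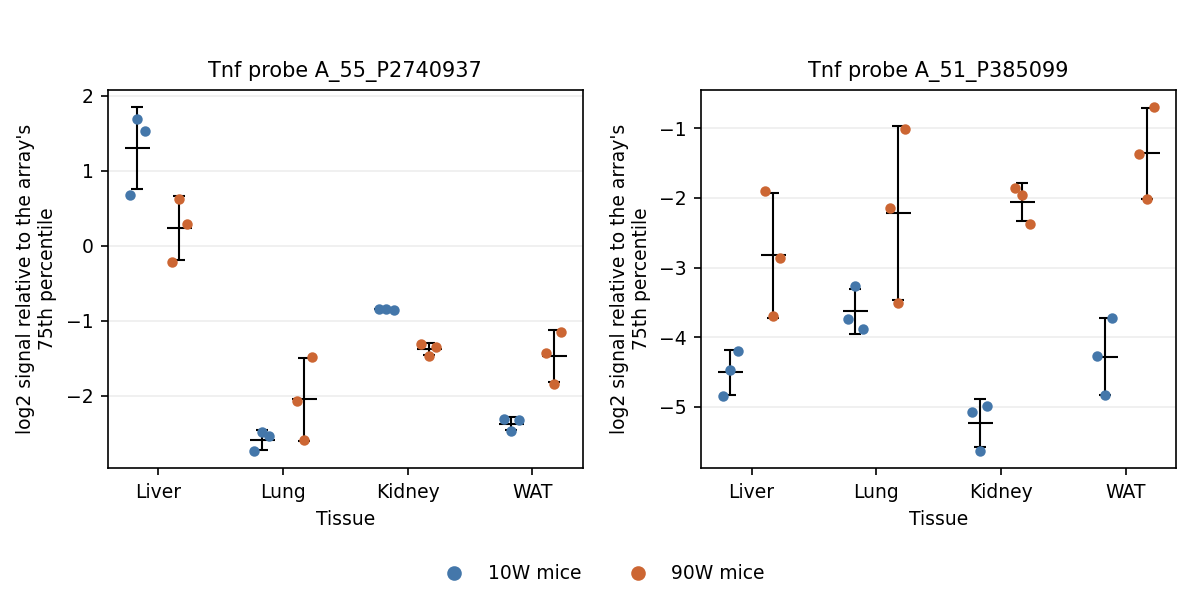
log2 signal relative to the 75th percentile of the array for the 2 probes of Tnf (panels) in each tissue, 1 point per mouse, with the mean and SD of the 3 mice of each age. In kidney the ages are separate in both panels and in opposite order, with a change of -0.53 on the left and 3.17 on the right.

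Other members had probes that disagreed too. Tnfrsf19, an orphan receptor also called TROY, was lower in kidney by A_55_P2742341 (change -0.42, adjusted p = 0.0287) and higher by A_51_P399305 (change 0.88, adjusted p = 0.00875). Besides Tnf, it was the only member whose probes were called in opposite directions in the same tissue. Both count as lower in kidney by their brighter probe. Tnfrsf13b, the receptor TACI of B cells, was lower in liver by its brighter probe, from -1.91, -2.22 and -2.02 to -2.71, -2.66 and -2.50 (change -0.57, SE 0.16, adjusted p = 0.0401). Its second probe, A_51_P106269, did not pass the filter in liver and was higher in kidney and WAT, where the brighter probe was not called. In kidney and WAT that probe had 0 young and 3 aged arrays well above background. It thus passed the filter there through the aged mice alone. The liver call of Tnfrsf13b was lost without any 1 of young mice 1 to 3 or aged mice 1 and 2, at adjusted p-values of 0.0819 to 0.121.

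Tnfrsf21, death receptor 6, is a death domain receptor found on many cell types and rose in liver but fell in kidney. The young livers read -2.58, -2.52 and -2.19 and the aged livers -0.54, -0.12 and -0.66, a change of 1.99 (SE 0.20, adjusted p = 0.00242). The young kidneys read 3.14, 3.45 and 3.35 and the aged kidneys 2.05, 2.34 and 2.71, a change of -0.95 (SE 0.18, adjusted p = 0.00501). Neither tissue had overlapping ages. In lung the young mice read -0.18, 0.07 and -0.03 and the aged mice -0.33, -0.04 and 0.26, and in WAT the young mice read -0.51, -1.14 and -0.83 and the aged mice -0.51, -1.08 and -0.89. The lung and WAT changes were 0.01 and 0.00, with overlapping ages.

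The change in liver exceeded that in kidney by 2.94 (SE 0.30, adjusted p = 9.3e-06), in a limma fit of all 24 arrays, where every combination of tissue and age was its own group. This contrast called 7.76% of the 34308 probes that passed in both tissues. The liver change also exceeded the lung change by 1.98 (adjusted p = 0.00067; 13.3% of probes called) and the WAT change by 1.99 (adjusted p = 0.000554; 15%). The kidney change lay below the lung change by 0.96 (adjusted p = 0.0332; 19.5%) and differed from the WAT change by -0.95 (adjusted p = 0.0333; 20.4%). Lung and WAT did not differ detectably (adjusted p = 0.994; 2.62%). The second probe of Tnfrsf21, A_66_P114946, fell in kidney (change -0.69, adjusted p = 0.00959), had a change of 0.30 in liver that was not called (adjusted p = 0.339), and differed between liver and kidney by 0.98 (adjusted p = 0.0249). Under the spike-in scaling the difference between liver and kidney was 2.21 (adjusted p = 0.0157) for the first probe and 0.25 (adjusted p = 0.727) for the second, and the kidney change of -0.75 was no longer called (adjusted p = 0.288).

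The BAFF and APRIL system sustains B cells and plasma cells. Tnfsf13b, which encodes BAFF, rose in kidney from -3.73, -3.81 and -3.53 to 0.90, 0.52 and -0.05 (change 4.14, SE 0.24, adjusted p = 8.95e-05). It rose in liver from -4.98, -5.45 and -4.22 to -1.65, -1.77 and -2.55 (change 2.89, SE 0.37, adjusted p = 0.00424), with 1 of 3 young livers well above background. The aged mice stood apart from the young in both tissues. Its receptors Tnfrsf13c (BAFF receptor, on B cells) and Tnfrsf17 (BCMA, on plasma cells) had no young kidney well above background. At 90W they were at least 7.55-fold and at least 4.19-fold higher there (adjusted p = 0.000374 and 0.000266). Such a bound sets the aged mean against the lowest signal well above background on each young array. The adjusted p beside a bound, here and below, is from limma on the fitted change and does not test the bound. Members given with a bound passed the filter through the aged mice alone. In WAT, Tnfrsf13c rose from -5.41, -4.20 and -3.76 to -0.97, -0.53 and -1.40 (change 3.49, SE 0.47, adjusted p = 0.0238), with 2 of 3 young arrays well above background, and Tnfrsf17 from -4.48, -3.79 and -3.77 to -1.90, -1.89 and -2.65 (change 1.87, SE 0.31, adjusted p = 0.0424). In WAT the call of Tnfrsf17 was lost without any 1 mouse, at adjusted p-values of 0.058 to 0.156, and that of Tnfrsf13c without young mouse 2 or any aged mouse, at 0.0666 to 0.0974. Of the system's listed members tested, 3 of 4 were higher in kidney and 2 of 4 in WAT. In liver 1 of 3 was higher and 1 lower, and in lung 0 of 4 were higher. Over members well above background on all 6 arrays the count was 1 of 2 in kidney, 1 of 3 in WAT, 0 of 1 in liver with 1 lower, and 0 of 3 in lung. Beside this count and the list counts below stand the shares of all tested called higher. They were 20.6% in kidney, 2.01% in WAT, 10.5% in liver and 2.72% in lung. Over genes on all 6 arrays they were 17.8%, 1.34%, 9.03% and 2.95%. Differences between the lists were not tested.

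Of the costimulatory ligands and receptors of T cells, 6 of 9 tested were higher and 1 lower in kidney, 3 of 7 were higher in liver, 2 of 8 in lung and 2 of 8 in WAT. Over those well above background on all 6 arrays, 4 of 5 were higher in kidney, 0 of 3 in liver, 2 of 8 in lung and 1 of 7 in WAT. Tnfrsf9, the receptor 4-1BB, had no young kidney or liver well above background, and at 90W was at least 13.3-fold higher in kidney (adjusted p = 0.000623) and at least 2.16-fold higher in liver (adjusted p = 0.00302). Its ligand Tnfsf9 had no young liver well above background and was at least 2.67-fold higher in aged livers (adjusted p = 0.00638). Tnfsf8, the CD30 ligand, was at least 7.21-fold higher in aged kidneys (adjusted p = 0.000451) and at least 4.14-fold higher in aged WAT (adjusted p = 0.0071), with no young array of either tissue well above background. These p-values too belong to the fitted changes and not to the bounds. Tnfrsf8, the receptor CD30, was lower in kidney (change -1.01, adjusted p = 0.00601); it is named after its values were seen, since it was well above background on only 2 young arrays and 1 aged array.

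Of the listed ligands tested, 9 of 11 were higher and 2 lower in kidney, and 4 of 9 were higher in liver. In lung 0 of 11 were higher and in WAT 2 of 12. The member Tnfsfm13 is not on this list, nor on that of the BAFF and APRIL system, and is named for that reason. It was higher in kidney (change 1.59, adjusted p = 0.000392 in limma) and liver (change 2.02, adjusted p = 0.00353). It was not called in lung (adjusted p = 0.53) or WAT (adjusted p = 0.115). Over listed ligands well above background on all 6 arrays, 6 of 8 were higher and 2 lower in kidney, 1 of 5 was higher in liver, 0 of 11 in lung and 1 of 9 in WAT. The TNF and lymphotoxin system had 5 of 8 members tested higher and 1 lower in kidney (4 of 7 higher over those on all 6 arrays). The lower one was Tnf, counted here and among the ligands by its brighter probe, while its other probe was called higher. In lung 1 of 8 was higher. That lung member was Tnfrsf1b, the TNF receptor of leukocytes and regulatory T cells, which rose from -0.63, -0.54 and -0.57 to 0.65, 0.31 and 1.08 (change 1.26, SE 0.20, adjusted p = 0.0279). The ages did not overlap, and the call was lost without any young lung (adjusted p = 0.0958 to 0.123) or without aged mouse 1 (0.0527). In the TRAIL and Fas system, 5 of 6 members were higher in kidney and 1 was lower, 3 of 6 were higher in liver, and none was called in lung or WAT. Over its members on all 6 arrays, 3 of 4 were higher and 1 lower in kidney and 2 of 4 were higher in liver. Fasl, the Fas ligand of cytotoxic lymphocytes, rose in liver from -4.04, -4.23 and -5.21 to -2.96, -2.03 and -2.31 (fitted change 2.06, SE 0.37, adjusted p = 0.0116). Only 1 of the 3 young livers was well above background for it. With normexp background correction the change was 0.72 and not called (adjusted p = 0.051), and the call was also lost under the methods' t-test after adjustment (0.0635) and the replicate block (0.0742). Tnfsf10, the death ligand TRAIL, fell in kidney from 1.37, 1.44 and 1.76 to 0.73, 0.95 and 0.84 (change -0.68, SE 0.13, adjusted p = 0.00453) and was not called under the spike-in scaling (adjusted p = 0.585).

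Tnfrsf19 was lower in liver by its brighter probe, from 0.84, 0.81 and 0.63 to 0.19, -0.30 and -0.12 (change -0.84, SE 0.18, adjusted p = 0.0196), and in kidney from -1.37, -1.34 and -0.96 to -1.63, -1.60 and -1.71 (change -0.42, SE 0.13, adjusted p = 0.0287). Neither tissue had overlapping ages. In liver the second probe, A_51_P399305, was well above background on all arrays and read -1.27, -0.71 and -1.31 in young and 0.34, -1.66 and -0.89 in aged mice, with overlapping ages (change 0.36, adjusted p = 0.595). The mean of both probes was -0.24 in liver (adjusted p = 0.587). The liver call of the brighter probe was lost without young mouse 1 (adjusted p = 0.068) or 2 (0.0772) and the kidney call without any aged mouse (adjusted p = 0.0635 to 0.0777). The decoy and soluble receptors, which bind ligand without signalling, were higher in 3 of 3 in kidney, with a median change of 1.09, and in 2 of 3 in liver (2 of 2 in each over those on all 6 arrays). Among them Tnfrsf23, named after its values were seen, is counted by its brightest probe. The mean of its probe A_51_P370720 went from -4.65 to -5.06 in kidney. That of its probe A_55_P1974005 went from -3.88 to -4.78 in liver. The RANK system was higher in 2 of 2 members tested in kidney and 1 of 2 in liver, and the TWEAK system in 2 of 2 in kidney.

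The lung and WAT counts depend on single mice, and so do the counts of all tested there. In the lung the 3 members became 8 without aged mouse 2, 2 higher and 2 lower without aged mouse 1, 0 without young mouse 1 or 2, and 1 without young mouse 3. Of all 30327 tested in lung, the 825 higher and 875 lower became 1088 and 746 without aged mouse 2. They became 737 and 905 without aged mouse 1, 1 and 1 without young mouse 1, and 16 and 8 without young mouse 2. Without young mouse 3 they became 142 and 76. In WAT the 5 members stayed at 5, with 1 lower, without young mouse 1, and became 2, 3, 3, 2 and 1 without young mouse 2, young mouse 3, aged mouse 1, aged mouse 2 and aged mouse 3. Of all 30063 tested in WAT, the 605 higher and 174 lower became 478 and 108 without young mouse 1. Without young mouse 2 or 3 they became 213 and 33 or 283 and 25. Without aged mouse 1, 2 or 3 they became 277 and 26, 318 and 124, or 211 and 38. In liver the 2 lower members became 0 without young mouse 2 and 1 without young mouse 1, young mouse 3, aged mouse 1 or aged mouse 2. The 12 higher in liver became 14 without aged mouse 2. Of all 27906 tested in liver, the 2928 higher and 4749 lower became 1497 and 997 without young mouse 2. Without young mouse 1 or 3 they became 1768 and 1208 or 2183 and 3227. Without aged mouse 1 or 2 they became 2206 and 2627 or 2392 and 2697.

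The lung of aged mouse 2 was far from the other aged lungs for 4 members, named here after their values were seen. Tnfrsf13c read -3.91 in that lung and 0.22 and 0.16 in the other aged lungs, with young lungs at -0.97, -0.98 and -1.98. Tnfrsf17 read -6.20 there and -2.33 and -2.43 in the others. Both B lineage receptors were thus below every young lung in that mouse and above every young lung in the other aged mice. Fasl went the other way, at 1.28 there and -0.98 and -0.97 in the others, and so did Tnfsf14, the ligand LIGHT, at 0.16 there and -0.79 and -1.59. The plasma cell marker sum was 6.53 in that lung and 65.7 and 81.9 in the other aged lungs, and the NK cell marker sum 24.4 against 8.06 and 7.64. Tnfrsf17 is itself a plasma cell marker on the list. The part of these cells in the values was not tested.

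**Figure D5:**
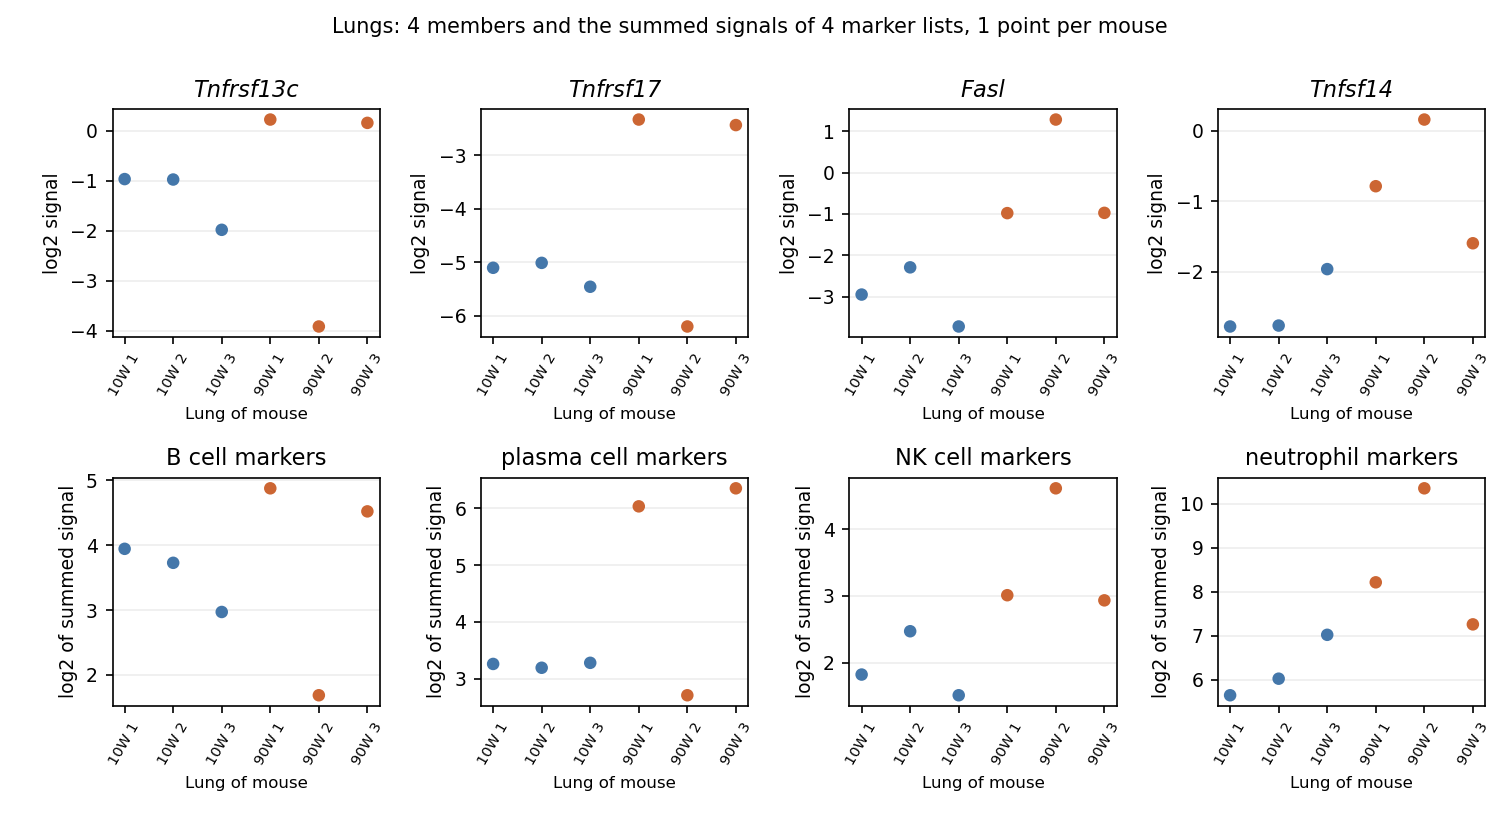
The 6 lungs, 1 point per mouse: log2 signal relative to the 75th percentile for 4 members (top) and log2 of the summed signal of 4 marker lists (bottom), with 10W in blue and 90W in orange. The lung of aged mouse 2 is the lowest point for Tnfrsf13c, Tnfrsf17 and the B cell and plasma cell markers, and the highest for Fasl, Tnfsf14 and the NK cell and neutrophil markers.

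Markers of leukocytes were read on the same arrays. In bulk tissue more cells of a type and more RNA per cell cannot be told apart. In the kidney 6 of 6 macrophage markers were higher, with a summed signal of 22.9 to 26.0 in young and 91.3 to 130 in aged mice, as were 5 of 5 plasma cell markers (1.32 to 1.44 against 49.9 to 83.1). Of 7 T cell markers 6 were higher and 1 lower in kidney (7.43 to 8.81 against 13.5 to 15.6), and of 6 B cell markers 4 were higher and 2 lower (0.689 to 1.05 against 2.06 to 3.11). Over the same kidneys 4 of 6 kidney epithelial markers were lower and 1 higher (514 to 626 against 180 to 368). Of all tested in kidney, 42.6% were lower and 20.6% higher. The 13410 lower calls there became 1181 under the spike-in scaling.

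In the liver 6 of 6 macrophage markers (50.3 to 73.8 against 236 to 285), 4 of 7 T cell markers, 2 of 4 plasma cell markers and 1 of 6 B cell markers were higher. The summed T cell signal of the liver was nonetheless lower in every aged mouse, at 43.6 to 61.1 in young and 39.8 to 43.0 in aged mice. Of the 3 T cell markers not called, Cd3e had a change of -0.28, Cd4 of -0.44 and Cd8a of -0.24 (adjusted p = 0.205, 0.107 and 0.29). The hepatocyte sum was also lower without overlap (4013 to 4829 against 2756 to 3357), with 1 of 5 markers called lower. Of all tested in liver, 17% were lower and 10.5% higher. In WAT 3 of 6 macrophage markers (41.6 to 129 against 277 to 605), 5 of 7 T cell markers (5.86 to 6.60 against 15.0 to 24.2), 4 of 6 B cell markers (0.693 to 1.61 against 6.67 to 11.5) and 3 of 5 plasma cell markers (1.48 to 5.86 against 39.0 to 56.0) were higher. In the lung 5 of 7 T cell markers were higher (12.5 to 16.2 against 28.1 to 40.0), and none of the macrophage, B cell or plasma cell markers was called. Of all tested, 2.01% were higher in WAT and 2.72% in lung. The part of these cells in the change of any member was not tested.

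Downstream genes of the receptors were read from lists of 22 adaptors and 11 NF-kappaB genes, with 5 relatives outside the naming rule. In kidney 10 adaptors were higher and 5 lower, and 6 NF-kappaB genes were higher and 3 lower. In liver 6 adaptors and 3 NF-kappaB genes were higher and none lower, in lung 2 adaptors were higher, and, of the 2 lists, none was called in WAT (5 higher and 0 lower at an unadjusted p under 0.05 in limma). How many of all tested in WAT passed that unadjusted cutoff in limma was not counted. In percent of each list, 45.5 of adaptors were higher and 22.7 lower in kidney and 54.5 and 27.3 of NF-kappaB genes, where 20.6% of all tested were higher and 42.6% lower. In liver 27.3% of each list was higher and 0 lower, where 10.5% and 17% of all tested were, and in lung 9.09% of adaptors were higher against 2.72%. The median change of the adaptors was 0.11 in kidney, 0.01 in liver, 0.02 in lung and 0.23 in WAT, and that of the NF-kappaB genes 0.58, 0.22, 0.06 and 0.29. The largest changes in kidney were those of Eda2r, a receptor of ectodysplasin A2 (3.40, adjusted p = 0.00256), Ripk3, the kinase of necroptosis (2.74, adjusted p = 5.66e-05), and Nfkbie, an inhibitor of NF-kappaB (2.64, adjusted p = 0.000157). In liver they were those of Tnfaip3, the ubiquitin-editing inhibitor A20 (2.48, adjusted p = 0.00187), Eda2r (2.31, adjusted p = 0.031) and Ripk3 (2.21, adjusted p = 0.0021). No young liver had Eda2r well above background, so its liver value is fitted and its rank there is uncertain. In kidney 1 of the 3 relatives outside the naming rule called higher had no young array well above background. In lung they were those of Tnfaip3 (1.04, adjusted p = 0.0167) and Mlkl, the executor of necroptosis (0.60, adjusted p = 0.028). Under the spike-in scaling the 9 adaptor and NF-kappaB genes higher in liver became 2, and the 16 higher and 8 lower in kidney became 11 and 0.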

How the data were processed

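Per the labels, total RNA of each tissue was extracted with an RNeasy kit, labelled with Cy3 and hybridised to 1-colour Agilent arrays. The authors deposited 1 scanner file per array (24 arrays) from Agilent Feature Extraction 11.0.1.1, holding the intensity of each spot with background-corrected processed signals, which are not normalized between arrays. The file headers name a mouse design, while the methods name a human kit; the headers were followed. The processed series table was not used.

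Spots of a probe were averaged (outlier spots and control spots left out), log2 was taken and the 75th percentile of each array subtracted. Accessions were matched, without version, to RefSeq (GRCm38.p6): 32994 of 56605 probes (58.29%) were named. A probe was kept in a tissue if 3 or more of its 6 arrays had it well above background, and a gene was read from its brightest probe in that tissue. Each tissue was fitted on its own in limma 3.58.1 (R 4.3.3). All 6 arrays of a tissue share a slide. Between 59% and 71% of probes were well above background on an array.

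The members, the gene lists and the tests were chosen with earlier results of these data known. Members named with values are Tnf, those called in at least 3 tissues, those called in both directions, and per tissue the 5 largest called changes each way whose ages do not overlap and whose brighter age is well above background on all its arrays; other members are named only as stated. No list was tested as a set. The fit was tested on simulated data. The labels do not say whether several tissues came from the same mouse, and replicate numbers were taken as names only.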

Additional observations from a re-analysis of the deposited data

Results flagged for a closer look

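Tnfrsf21 was singled out because it was called higher in liver and lower in kidney. The contrast of liver and kidney thus draws on the values that chose it. Other members passed such contrasts too, such as Tnfrsf4 for liver minus kidney (-1.51, adjusted p = 0.000245 in limma). The values given here for Tnfrsf21 are from limma on all 24 arrays. For the brighter probe, the change in liver exceeded that in kidney by 2.94 (SE 0.30, adjusted p = 9.3e-06), that in lung by 1.98 (SE 0.30, adjusted p = 0.00067) and that in WAT by 1.99 (SE 0.30, adjusted p = 0.000554). The change in lung exceeded that in kidney by 0.96 (SE 0.30, adjusted p = 0.0332), and the change in kidney minus that in WAT was -0.95 (SE 0.30, adjusted p = 0.0333). For the second probe, the change in liver exceeded that in kidney by 0.98 (SE 0.26, adjusted p = 0.0249). All 3 aged livers were above all 3 young livers, and all 3 aged kidneys below all 3 young kidneys, for the brighter probe. Groups of 3 mice are too small for a check for outlying mice.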

How the results depend on the processing

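Each count of members was recomputed under 10 other settings and without each mouse, and values below are counts of members higher or lower at 90W, with the reported count in brackets. Under normexp background correction the lung had 6 higher [3] and 1 lower [0]. Of all tested in lung, 803 were then higher [825] and 571 lower [875]. Under spike-in scaling the liver had 7 higher [12], the lung 7 higher [3] and 4 lower [0], the kidney 0 lower [5] and WAT 11 higher [5]. Over all tested that scaling gave 1062 higher [2928] and 3632 lower [4749] in liver and 702 [825] and 3584 [875] in lung. In kidney it gave 3853 [6483] and 1181 [13410], and in WAT 1133 [605] and 76 [174]. Centred on the median of the tested genes, the lung had 5 higher [3], and of all tested 830 higher [825]. With no filter on dim probes, the liver had 7 lower [2]. Of the 45616 then tested in liver, 12841 were lower, against 4749 of 27906 with the filter. With the mean of a gene's probes, the liver had 1 lower [2] and the kidney 3 lower [5]. Of all tested, 4907 were then lower in liver [4749] and 13301 in kidney [13410]. With all 24 arrays in 1 fit, the lung had 7 higher [3], the kidney 1 lower [5] and WAT 18 higher [5]. Over all tested that fit gave 591 higher [825] and 383 lower [875] in lung and 4406 [6483] and 9070 [13410] in kidney. In WAT it gave 3263 higher [605] and 3127 lower [174]. The methods' t-test after Benjamini-Hochberg adjustment gave 0 lower in liver [2], 1 higher in lung [3] and 0 higher in WAT [5], and unadjusted 11 higher and 2 lower in lung and 17 higher in WAT. Over all tested the adjusted t-test gave 1785 lower in liver [4749], 99 higher in lung [825] and 1 higher in WAT [605]. The unadjusted counts of all tested are given above.

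With the replicate block, the liver had 6 higher [12] and 0 lower [2], the lung 0 higher [3] and WAT 3 higher [5]. Over all genes the replicate block gave 1068 higher and 630 lower in liver, against 2928 and 4749 without it, 1 and 0 in lung against 825 and 875, and 323 and 41 in WAT against 605 and 174. The numbers name different animals, and deviations of same-numbered mice correlated at -0.17 to 0.18, so the numbers were not taken as pairs; in liver the ages share only numbers 1 and 2.

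Leaving out 1 mouse at a time, the counts ran from 9 to 14 higher and 0 to 2 lower in liver, 0 to 8 higher and 0 to 2 lower in lung, 24 to 26 higher and 4 to 6 lower in kidney, and 1 to 5 higher and 0 to 1 lower in WAT. Over all genes, these omissions took the lung to as few as 1 higher and 1 lower (without young mouse 1).

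Some changes turned sign. Tnfrsf4 in liver was -0.065 under spike-in scaling. With the mean of its probes, Tnf was 0.31 in liver and 1.32 in kidney, and Tnfrsf19 was 0.23 in kidney. Tnfrsf21 in lung, near 0, was -0.29 under spike-in scaling, -0.0061 when centred on the tested genes, -0.063 with the mean of its probes, and -0.14 to 0.16 without 1 mouse. In WAT it was -0.019 under normexp, -0.00035 when centred on the tested genes, and -0.16 to 0.16 without 1 mouse. The cause of these shifts was not tested. Of the members that the naming rule picked, 8 in kidney were called under all 16 alternatives. They were Ltb, Tnfrsf4, Tnfrsf9, Tnfrsf13c, Tnfrsf17, Tnfrsf18, Tnfsf8 and Tnfsf13b. In liver Tnfrsf9, Tnfrsf18, Tnfrsf21 and Tnfsf13b were. Members outside that rule were too, such as Tnfsfm13 in both tissues. Tnfrsf9 in both tissues and Tnfrsf13c, Tnfrsf17 and Tnfsf8 in kidney passed the filter through the aged mice alone. Arrays give no counts, so 3 mice per age limit the precision.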

Other observations

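Neutrophil and NK cell markers stood out in single aged mice. The summed signal of 5 neutrophil markers was 1348 in the liver of aged mouse 2, against 25.8 and 17.1 in the other aged livers and 1.90 to 7.17 in the young, and 1303 in the lung of aged mouse 2, against 297 and 153. The summed NK cell signal was also the highest there, at 8.15 in that liver (others 2.20 and 2.34) and 24.4 in that lung (others 8.06 and 7.64). In WAT the highest sums were in aged mouse 3, at 811 for neutrophils and 10.1 for NK cells. In kidney the aged sums were 2.46 to 9.42 for neutrophils and 2.83 to 3.04 for NK cells. The B cell sum of the liver of aged mouse 2 was 1.85, against 6.59 and 4.74 in the other aged livers. Whether liver 2 and lung 2 came from the same animal is not given in the labels, and the part of these cells in any result was not tested.

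Adipocyte markers were lower in the aged lungs, with a summed signal of 9.56, 7.76 and 25.2 at 90W against 60.1, 62.3 and 36.9 at 10W, and 2 of 5 called. In WAT the hepatocyte sum was 5.14, 8.69 and 24.6 in young mice and 0.558, 1.75 and 0.756 in aged mice.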
